A study of Mus musculus with 2 samples.

Results

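Rasgrp2 (ENSMUSG00000032946), Rab37 (ENSMUSG00000020732), Itgb7 (ENSMUSG00000001281) and Rom1 (ENSMUSG00000071648) are the 4 genes described here, out of 56941 features in the deposited count tables. They were chosen by their log2 ratio of UMI counts per library in CD8+ T cells: an earlier processing of these data placed them, next to Gzma, among the genes highest by the ratio of the SLAMF3 knockdown library to the control library. That contrast therefore describes how the genes were picked, and within CD8+ T cells it was not tested. The data came from immune cells of liver metastases that formed after intrasplenic injection of MC38-LM3b, a liver-metastatic derivative of the mouse colorectal line MC38, into C57BL/6 mice aged 6 to 8 weeks. The tumor cells carried a scrambled hairpin (shScramble, Ctrl) or a hairpin against SLAMF3 (shSLAMF3, KD), the receptor encoded by Ly9, while the host immune cells that were sequenced carried no hairpin in either group. Livers were taken 2 weeks after injection, the metastatic tissue of 3 mice was pooled per group, and cells bound by CD45-positive selection went into 1 droplet-based 3′ library per group. Mice could not be told apart inside a library, so no value below has an error between animals, and no p-value could be computed.

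The 4 genes belong to different processes of a lymphocyte. Rasgrp2 (CalDAG-GEFI) is an exchange factor that responds to calcium and diacylglycerol and loads the small GTPase Rap1, which in turn switches leukocyte and platelet integrins to their adhesive form. Itgb7 is the integrin subunit that pairs with the α4 chain, for homing to gut endothelium through Madcam1, or with the αE chain, for retention beside epithelium through E-cadherin. Rab37 is a small GTPase of secretory vesicles and granules, and Rom1 is a tetraspanin best known from the disc rims of photoreceptors, where its partner is Prph2. The recirculation of T cells is governed by KLF, FOXO and TCF/LEF factors, which keep resting cells in the blood and lymphoid organs, and by ETS and RUNX factors shared by the whole lineage.

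The bases just upstream of the annotated starts are shown so that the promoters of genes picked by the same contrast can be set side by side. RefSeq (GRCm38.p6) entries were found for 3 of the 4 genes, as 4 windows of 250 bases that end at the base before the start, each printed 5′ to 3′ on the strand of the gene. Capitals mark the core letters CACCC or GGGTG of the KLF site and GGAAG or CTTCC of the ETS site, both strands searched.
Rasgrp2 start 1, chr19:6399625-6399874, plus strand: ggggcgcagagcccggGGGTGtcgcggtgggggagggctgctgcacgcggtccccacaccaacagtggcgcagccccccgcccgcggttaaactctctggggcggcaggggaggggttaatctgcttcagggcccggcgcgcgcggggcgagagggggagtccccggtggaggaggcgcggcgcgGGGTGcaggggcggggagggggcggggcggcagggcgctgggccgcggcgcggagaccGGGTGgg
Rasgrp2 start 2, chr19:6401455-6401704, plus strand: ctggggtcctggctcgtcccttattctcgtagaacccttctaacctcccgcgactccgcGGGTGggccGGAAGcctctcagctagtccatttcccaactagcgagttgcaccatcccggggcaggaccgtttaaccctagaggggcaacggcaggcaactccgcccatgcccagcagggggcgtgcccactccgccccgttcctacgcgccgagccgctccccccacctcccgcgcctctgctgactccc
Itgb7, chr15:102231936-102232185, minus strand: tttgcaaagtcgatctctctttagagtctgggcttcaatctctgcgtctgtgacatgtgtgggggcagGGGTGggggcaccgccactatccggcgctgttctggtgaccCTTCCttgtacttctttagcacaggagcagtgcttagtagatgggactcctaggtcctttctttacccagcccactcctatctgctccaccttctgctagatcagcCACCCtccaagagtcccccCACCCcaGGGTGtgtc
Rom1, chr19:8929357-8929606, minus strand: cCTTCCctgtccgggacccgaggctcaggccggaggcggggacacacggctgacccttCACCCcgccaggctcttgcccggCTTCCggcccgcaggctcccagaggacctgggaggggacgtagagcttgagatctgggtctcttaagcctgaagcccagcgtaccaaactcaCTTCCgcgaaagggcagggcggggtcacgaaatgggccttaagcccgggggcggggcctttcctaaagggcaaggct
The KLF letters occurred 3 and 1 times in the Rasgrp2 windows, 4 times in that of Itgb7 and 1 time in that of Rom1, and 52.0% of all 32851 windows of this length held at least 1 match. The ETS letters occurred 0 and 1 times for Rasgrp2, 1 time for Itgb7 and 3 times for Rom1, against a match in 64.1% of all windows. The RUNX letters TGTGG or CCACA were found 1 time in the first Rasgrp2 window and 1 time in that of Itgb7 (49.3% of all windows), and neither the TCF/LEF letters CTTTGA or TCAAAG (13.8%) nor the FOXO letters TGTTTAC or GTAAACA (3.17%) were found in the 4 windows. The first Rasgrp2 window was 79.6% G and C against 67.2% for its second window, 56% for Itgb7 and 66.8% for Rom1.

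The Ctrl library held 10416 cells and 67207234 UMIs as deposited and the KD library 10943 cells and 64444715 UMIs, with a median of 5411.5 and 4989 UMIs in the 9814 and 10185 cells kept. The libraries shared 27 cell barcodes. Clustering gave 2812 Ctrl and 1399 KD cells called CD8+ T cells, with 22951113 and 9625641 UMIs. Levels are given as CPM, the UMIs of a gene per 1000000 UMIs of its class and library. Their summed Cd8a and Cd8b1 level was 523 CPM in Ctrl and 424 CPM in KD. They fell into exhausted-like cells (1020 Ctrl and 266 KD cells), cycling cells (711 and 315), effector-like cells (647 and 364), naive-like cells (237 and 393), a small cluster led by Tcf7 and Slamf6 (85 and 41) and a small cluster led by Ccnb2 and Cdkn3 (112 and 20). The naive-like cluster went partly against its label, since 34.6% of its Ctrl and 44.3% of its KD cells had a Cd8a or Cd8b1 UMI, against 82.4% to 96.8% in the other 3 named states, and 14.8% and 13.2% had a UMI of the NK receptor genes Ncr1, Klrb1c, Klra8 or Klra4. Transcripts of granulocytes were spread through the KD cells: S100a8 or S100a9 was seen in 13.1% to 19.1% of the Ctrl cells and in 55.5% to 62.5% of the KD cells of the 4 named states, and in 16.8% and 54.4% of NK-like cells. Ly9 itself could not be checked in the tumor-like or fibroblast-like cells, with 12 Ctrl and 7 KD UMIs (5.91 and 5.42 CPM).

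Over all CD8+ T cells, Rasgrp2 was 25.5 CPM in Ctrl (586 UMIs) and 64.4 CPM in KD (620 UMIs), a log2 ratio of 1.33 with a 95% interval of 1.17 to 1.5004. Intervals of levels and ratios here and below cover counting error only. Itgb7 was 27.9 CPM in Ctrl (641 UMIs) and 65.5 CPM in KD (630 UMIs), a log2 ratio of 1.23 (1.07 to 1.39). The KD library thus gave about as many UMIs of both genes as the Ctrl library from fewer CD8+ T cells, and Rab37 and Rom1 were counted less often. Rab37 was 6.93 CPM in Ctrl (159 UMIs) and 16.0 CPM in KD (154 UMIs), a log2 ratio of 1.21 (0.88 to 1.54). Rom1, the gene with the fewest UMIs, was 5.10 CPM in Ctrl (117 UMIs) and 10.4 CPM in KD (100 UMIs), a log2 ratio of 1.03 (0.63 to 1.42). All 4 were at least 2-fold higher in KD, as were 1.22% of the 9121 genes with at least 200 UMIs in these cells, and all 4 intervals lay above 0, as did those of 17.7% of the genes. Both shares are printed for scale, since this contrast chose the 4 genes.

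In the order of log2 ratios with 0.5 CPM added, over 7494 genes, Rasgrp2 stood in place 2 (1.32), Itgb7 in place 3 (1.21) and Rom1 in place 8 (0.96). Hmgb1-ps8 in place 1 (1.33), Gpr18 in place 4 (1.20), Rras2 in place 5 (1.19) and Bicdl1 in place 6 (1.12) stood beside them. Around Rom1, Itpr2 in place 7 had 0.97 and Rundc3b in place 9 had 0.96. The order takes only genes that reach 0.2 times the level of their highest class, and Rab37 missed this limit at 0.191 times its level in NK-like cells, with a ratio of 1.15 on the same scale. Gzma missed it as well, at 0.135 times, with 311 CPM in Ctrl against 1980 CPM in KD (log2 ratio 2.67). Further genes with a higher ratio than Rasgrp2 were absent from the order. Among them, without the added CPM, were Lef1 (1.82), Tcf7 (1.60), Klf3 (1.47), Il7r (1.45) and S1pr1 (1.39). The places above are therefore not places among all genes.

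**Figure D1:**
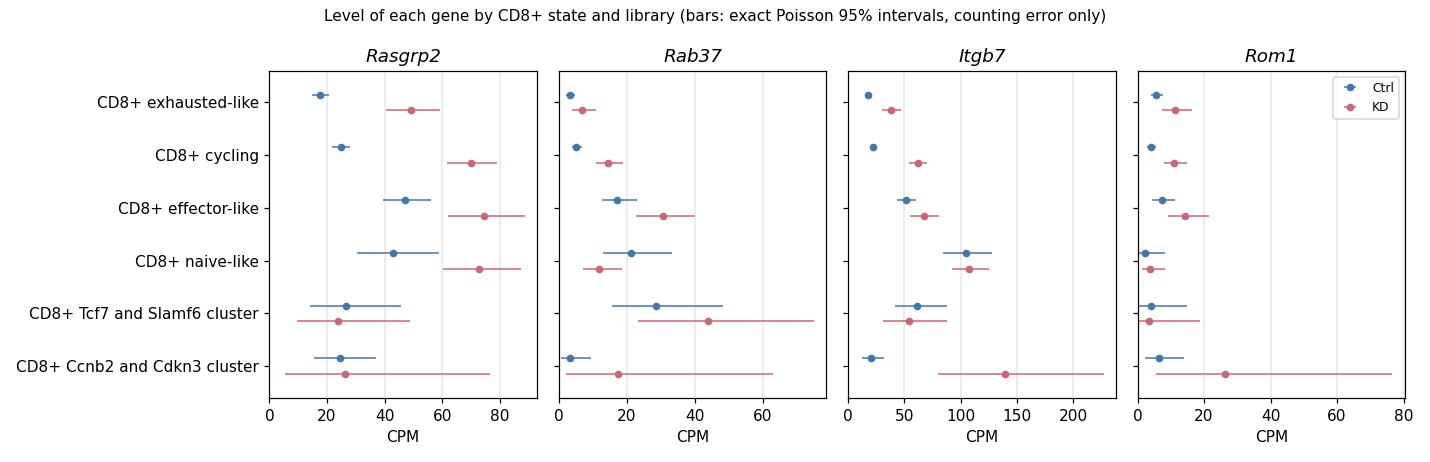
Level of each gene (CPM, x axis) in the 6 CD8+ states (y axis), Ctrl in blue and KD in red; bars are exact Poisson 95% intervals. In the exhausted-like and cycling states the KD points of Rasgrp2 and Itgb7 lie clear of the Ctrl points, whereas for Itgb7 the naive-like points almost coincide at 105 and 108 CPM.

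The exchange factor Rasgrp2 was higher in KD within each of the 4 named states as clustered, though in naive-like cells not under every alternative. In exhausted-like cells it was 17.7 CPM in Ctrl (146 UMIs) and 49.2 CPM in KD (110 UMIs), a log2 ratio of 1.48 (1.11 to 1.84). In cycling cells it was 24.7 CPM (238 UMIs) and 70.0 CPM (260 UMIs), a log2 ratio of 1.505 (1.25 to 1.76). The Ctrl levels of these 2 states were the lowest of the 4, and in cycling cells the KD level came close to that of the effector-like state. Effector-like cells went from 47.0 CPM (128 UMIs) to 74.3 CPM (124 UMIs), a log2 ratio of 0.66 (0.29 to 1.03). Naive-like cells went from 42.8 CPM (38 UMIs) to 72.7 CPM (116 UMIs), a log2 ratio of 0.77 (0.23 to 1.33), which was -0.20 with T cell clusters only and -1.66 under the tighter CD8+ gate given further on. Over the 4 named states the Ctrl levels thus ranged from 17.7 to 47.0 CPM, and the KD levels from 49.2 to 74.3 CPM. In the Tcf7 and Slamf6 cluster Rasgrp2 was 26.7 CPM in Ctrl (13 UMIs) and 23.6 CPM in KD (7 UMIs), too few UMIs to show a difference. The same holds for the Ccnb2 and Cdkn3 cluster, with 24.5 CPM in Ctrl (23 UMIs) and 26.2 CPM in KD (3 UMIs).

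The integrin subunit Itgb7 differed by state in another way. It was 17.9 CPM in Ctrl exhausted-like cells (148 UMIs) and 38.0 CPM in KD (85 UMIs), a log2 ratio of 1.09 (0.68 to 1.48). In cycling cells it was 22.0 CPM (212 UMIs) and 61.6 CPM (229 UMIs), a log2 ratio of 1.49 (1.21 to 1.76). In both states the counting intervals of the 2 libraries were apart. Effector-like cells, with 51.1 CPM (139 UMIs) and 67.1 CPM (112 UMIs), had a log2 ratio of 0.39 (0.02 to 0.76). Naive-like cells, where its level was highest of the 4 states, had 104.7 CPM in Ctrl (93 UMIs) and 107.8 CPM in KD (172 UMIs), a log2 ratio of 0.04 (-0.33 to 0.42). No difference was detectable there, and the interval leaves out a 2-fold one; with T cell clusters only, the log2 ratio there was -0.39. In the small Ccnb2 and Cdkn3 cluster Itgb7 was 20.3 CPM in Ctrl (19 UMIs) and 139.8 CPM in KD (16 UMIs), but the KD value came from 20 cells, and 1 of them held 7 of the UMIs.

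The vesicle GTPase Rab37 was low in all states. In exhausted-like cells it was 3.27 CPM in Ctrl (27 UMIs) and 6.71 CPM in KD (15 UMIs), a log2 ratio of 1.04 (0.02 to 2.00), and the direction turned at a clustering resolution of 1.0 (-1.06) and with T cell clusters only (-0.51). In cycling cells it was 5.08 CPM (49 UMIs) and 14.5 CPM (54 UMIs), a log2 ratio of 1.52 (0.93 to 2.11). Both Ctrl levels were under those of the effector-like and naive-like states. Effector-like cells had 17.3 CPM (47 UMIs) and 30.6 CPM (51 UMIs), a log2 ratio of 0.82 (0.22 to 1.43). Naive-like cells ran the other way, with 21.4 CPM in Ctrl (19 UMIs) and 11.9 CPM in KD (19 UMIs), a log2 ratio of -0.84 (-1.84 to 0.15), and this was the only one of the 16 values of the 4 genes in the 4 named states below 0. With T cell clusters only it was 0.71. In KD the level was highest in the Tcf7 and Slamf6 cluster, with 28.7 CPM in Ctrl (14 UMIs) and 43.9 CPM in KD (13 UMIs), a log2 ratio of 0.61 (-0.60 to 1.81).

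The tetraspanin Rom1 was measured by few UMIs in any state. It was 5.69 CPM in Ctrl exhausted-like cells (47 UMIs) and 11.2 CPM in KD (25 UMIs), a log2 ratio of 0.98 (0.21 to 1.70). In cycling cells it was 4.14 CPM (40 UMIs) and 11.04 CPM (41 UMIs), a log2 ratio of 1.41 (0.75 to 2.08). Effector-like cells had 7.35 CPM (20 UMIs) and 14.4 CPM (24 UMIs), a log2 ratio of 0.97 (0.05 to 1.90), which was -0.00975 with UMI gates in place of clusters. As clustered, the ratio was thus close to 2-fold or above it in these 3 states. Under the tighter CD8+ gate given further on it was 0.67 in exhausted-like and 0.41 in effector-like cells, with both intervals holding 0. Naive-like cells held 2 Ctrl and 6 KD UMIs (2.25 and 3.76 CPM, a log2 ratio of 0.74), at which depth no difference could be seen, and the value was above 0 in 7 of 11 alternatives.

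**Figure D2:**
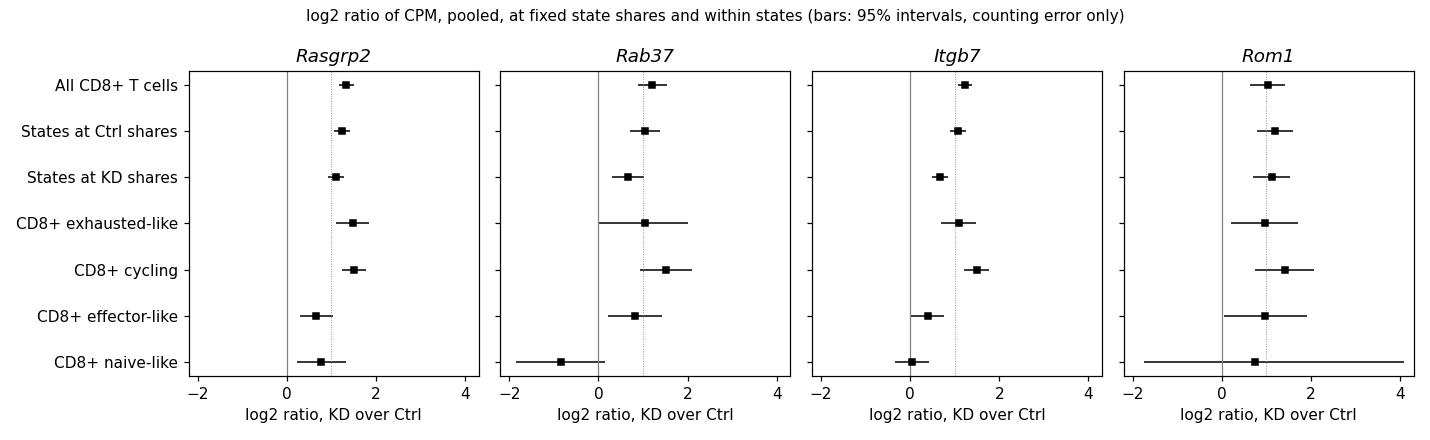
log2 ratio of KD over Ctrl (x axis) for each gene over all CD8+ T cells, with the 6 CD8+ states weighted by their Ctrl or KD shares, and within the 4 named states (y axis); bars are 95% intervals for counting error, and dotted lines mark a 2-fold difference. All 4 genes lie beyond the dotted line in cycling cells and near it or beyond it in exhausted-like cells. They lie below it in effector-like cells, Rom1 only just (0.97), and in naive-like cells.

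Counted over the states, all 4 genes were at least 2-fold higher in KD in cycling cells, where 1.19% of 10026 genes with at least 50 UMIs were. In exhausted-like cells 2 of the 3 genes with that many UMIs were (Rasgrp2 and Itgb7, while Rom1 lay just under at 0.98), against 0.64% of 9530 genes. In effector-like cells 0 of 3 were (0.385% of 7275 genes), and in naive-like cells 0 of 2 (0.669% of 5832 genes). Of the genes with that many UMIs, the intervals of 3 of 3 lay above 0 in exhausted-like cells (8.27% of genes), of 4 of 4 in cycling cells (10.5%), of 3 of 3 in effector-like cells (5.9%) and of 1 of 2, Rasgrp2, in naive-like cells (5.38%). These are the cells that chose the 4 genes, so the shares are again given for scale alone, and whether the ratios differ between states was not tested. In cycling cells thinned to 1500 UMIs the log2 ratio was 0.66 for Rab37, 2.08 for Itgb7 and 2.34 for Rom1. The border between the exhausted-like and effector-like states was not stable: with another linear algebra kernel, an alternative chosen after seeing the data, no effector-like state was named, and exhausted-like cells had a log2 ratio of 1.24 for Rasgrp2, 1.40 for Rab37, 1.05 for Itgb7 and 1.07 for Rom1.

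The states made up different shares of the 2 libraries. Exhausted-like cells were 36.3% of the Ctrl and 19.0% of the KD CD8+ T cells, naive-like cells 8.43% and 28.1%, cycling cells 25.3% and 22.5%, and effector-like cells 23.0% and 26.0%. Naive-like cells, the state that grew in share, held 6.48% of the Ctrl and 18.7% of the KD UMIs of Rasgrp2 in CD8+ T cells. They held 14.5% and 27.3% of those of Itgb7, while cycling cells held the largest single part of both genes in both libraries, 33.1% to 41.9%. The UMIs of Rab37 were spread over cycling (30.8% and 35.1%) and effector-like cells (29.6% and 33.1%), and those of Rom1 over exhausted-like (40.2% and 25%) and cycling cells (34.2% and 41%).

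**Figure D3:**
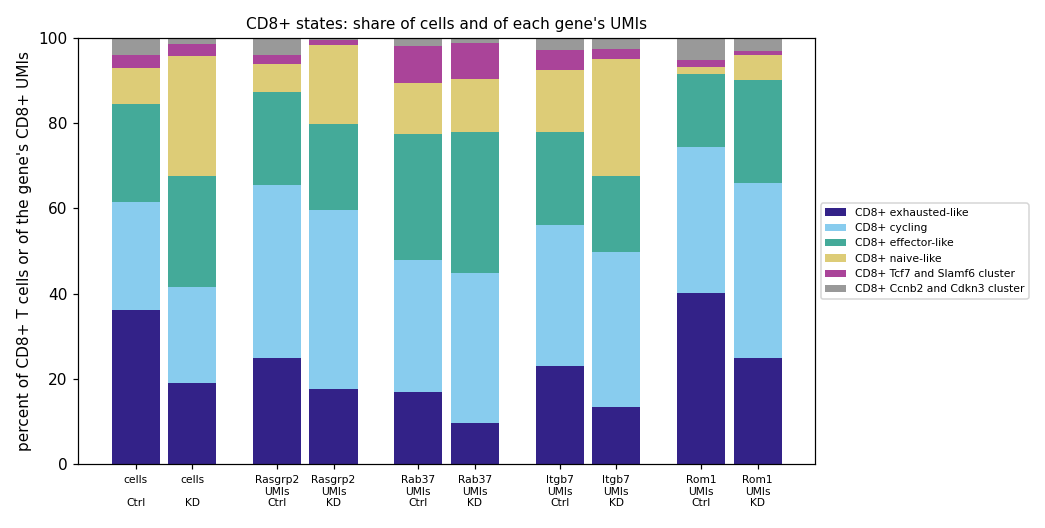
Percent of CD8+ T cells, and of the CD8+ UMIs of each gene, in the 6 CD8+ states (stacked bars; y axis), by library. The naive-like part grew from 8.43% to 28.1% of cells and from 14.5% to 27.3% of Itgb7 UMIs, and was 11.9% and 12.3% of Rab37 UMIs.

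With the 6 states weighted by their Ctrl shares of UMIs, the log2 ratio was 1.24 (1.07 to 1.41) for Rasgrp2, close to its value of 1.33 without weights. For Itgb7 it was 1.07 (0.89 to 1.24), for Rab37 1.04 (0.70 to 1.38) and for Rom1 1.19 (0.78 to 1.60). With KD shares as weights, chosen after seeing the data, Rasgrp2 had 1.104 (0.92 to 1.29) and Rom1 1.12 (0.71 to 1.54), whereas Itgb7 had 0.68 (0.49 to 0.86) and Rab37 0.65 (0.29 to 1.01). The difference between libraries was thus present at equal state shares for all 4 genes, and for Itgb7 and Rab37 its size depended on which shares were used. These intervals are normal approximations on the log scale. Left out altogether, the naive-like cells changed little: the log2 ratio was then 1.34 for Rasgrp2, 1.199 for Itgb7, 1.41 for Rab37 and 1.17 for Rom1.

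Markers of other cells moved with the KD library, and their part in these ratios was examined only as follows. Over CD8+ T cells, 6 granulocyte markers summed to 28.0 CPM in Ctrl and 170.5 CPM in KD, 5 B cell markers to 41.2 and 79.8 CPM, 8 macrophage markers to 83.3 and 85.8 CPM, 6 monocyte markers to 313 and 403 CPM, 8 cDC markers to 49.6 and 74.6 CPM, 6 endothelial markers to 36.6 and 66.7 CPM, 5 Kupffer cell markers to 1.26 and 6.23 CPM, and 6 NK markers other than Gzma to 305 and 376 CPM. None of the granulocyte, B cell or macrophage markers was at 0 in either library. If B cells, granulocytes, macrophages, monocytes and endothelial-like cells had given RNA to each state in proportion to their markers found there, that would amount to at most 2.53 CPM of Rasgrp2 (in KD cycling cells, of 70.0 CPM measured), 1.85 CPM of Itgb7, 0.25 CPM of Rab37 and 0.075 CPM of Rom1 in the 4 named states. All other classes were left out of that sum, among them Kupffer cells, cDC and NK-like, CD4+ T-like and Treg-like cells. The largest values given are therefore not upper bounds. Over both libraries, NK-like cells had the highest Rab37 level (50.3 CPM) and Treg-like cells the highest Itgb7 level (189 CPM). The cycling cells of the KD library also stood further from their label than those of Ctrl, with a Cd8a or Cd8b1 UMI in 82.9% against 96.8%, a Cd4 UMI in 8.57% against 1.97%, a UMI of the 4 NK receptor genes in 6.67% against 1.97%, and the 6 NK markers at 445 against 285 CPM. In cycling cells without any S100a8 or S100a9 UMI (575 Ctrl and 118 KD cells), Rasgrp2 was 24.1 and 88.8 CPM, a log2 ratio of 1.88 (1.54 to 2.23), and Itgb7 was 22.3 and 78.0 CPM, a log2 ratio of 1.81 (1.44 to 2.17). In exhausted-like cells without them (864 and 110 cells), Rasgrp2 was 18.1 and 45.0 CPM, a log2 ratio of 1.31 (0.76 to 1.83), and Itgb7 18.1 and 29.2 CPM, a log2 ratio of 0.69 (0.02 to 1.31). Over all cycling and all exhausted-like cells the log2 ratio was 1.505 and 1.48 for Rasgrp2, and 1.49 and 1.09 for Itgb7. In effector-like and naive-like cells without S100a8 or S100a9 UMIs the Rasgrp2 ratio was smaller than over all cells of the state. It was 0.31 (47.1 and 58.5 CPM, -0.24 to 0.84) in the former and 0.26 (43.9 and 52.5 CPM, -0.49 to 1.01) in the latter. The part of granulocyte RNA in these ratios was not tested. Of the 19 UMIs of Rab37 in KD naive-like cells, 2 came from the 153 cells without S100a8 or S100a9, against 13 of 19 from 206 such cells in Ctrl.

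The gate can be drawn more tightly, with a Cd8a or Cd8b1 UMI required and no UMI of Cd4 or of 8 NK, granulocyte and B cell markers allowed, an alternative chosen after seeing the data that kept 1993 Ctrl and 384 KD cells. Over these cells Rasgrp2 was 24.6 CPM in Ctrl and 58.5 CPM in KD, a log2 ratio of 1.25 (0.98 to 1.52). Itgb7 was 24.3 and 58.5 CPM (1.27, 0.99 to 1.53), Rab37 5.59 and 16.3 CPM (1.54, 0.996 to 2.07), and Rom1 5.71 and 11.9 CPM (1.06, 0.45 to 1.65). These pooled ratios were nearly as large as those of all CD8+ T cells, or larger. State shares were not held fixed in them, and the part of other cells in the ratios was not tested. In cycling cells (541 and 86 cells) all 4 intervals stayed above 0, with 1.88 for Rasgrp2 and 1.62 for Itgb7. Within other states some did not: Itgb7 had 0.64 (-0.11 to 1.32) and Rom1 0.67 (-0.64 to 1.78) in exhausted-like cells, and Rasgrp2 0.31 (-0.32 to 0.91) and Rom1 0.41 (-1.09 to 1.74) in effector-like cells. Of the naive-like cells, 67 Ctrl and 54 KD cells passed this gate, and there Rasgrp2 was at 12 and 3 UMIs (38.2 and 12.1 CPM, a log2 ratio of -1.66, -4.12 to 0.23), so its higher KD level in that state was not seen in them. Nor was it when T cell clusters alone were clustered (-0.20).

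The share of cells with a UMI showed the same order once every cell was thinned to 1500 UMIs, which left 2764 Ctrl and 1360 KD cells. Rasgrp2 was then seen in 4.305% of Ctrl and 8.97% of KD CD8+ T cells (16.1% and 28.7% before thinning, at a median of 6905 and 5727 UMIs), against 1.69% and 1.93% of conventional dendritic cells (cDC), whose median was 6468 and 8379 UMIs. Itgb7 was seen in 5.10% and 11.4% (16.5% and 28.5% before thinning), against 0.813% and 0.887% of endothelial-like cells, whose median was 7080 and 6234 UMIs. Rab37 was seen in 1.59% and 3.38% (5.33% and 9.86% before thinning), against 0.813% and 0.532% of endothelial-like cells. Rom1 was seen in 0.977% and 1.91% (3.88% and 6.22% before thinning), against 0.0896% and 0.232% of macrophages, whose median was 5568 and 7649 UMIs. Most CD8+ T cells therefore gave no UMI of any single gene of the 4, and in KD no cell held more than 9 UMIs of Rasgrp2 or 11 of Itgb7. The classes set beside them here were not those with the highest levels. Over both libraries, CD8+ T cells had 0.31 times the Rasgrp2 CPM of B cells. For Itgb7 they had 0.21 times the CPM of Treg-like cells, and for Rab37 0.19 times that of NK-like cells.

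Outside CD8+ T cells, whose ratios between libraries did not enter the choice of the genes, the 4 genes went separate ways. Rasgrp2 was highest in B cells, with 95.4 CPM in Ctrl (81 UMIs) and 124.7 CPM in KD (338 UMIs), a log2 ratio of 0.39 (0.03 to 0.75), and in Kupffer cells, with 104 and 95.8 CPM. Of the classes with at least 20 UMIs of it in each library, granulocytes had the largest ratio, with 26.1 CPM in Ctrl (48 UMIs) and 70.4 CPM in KD (512 UMIs), a log2 ratio of 1.43 (1.00 to 1.89). The granulocyte class joined a cluster of 737 Ctrl and 1640 KD cells with another of 43 and 582 cells. Its makeup was not held fixed. NK-like cells had 46.8 and 34.2 CPM (-0.45, -1.20 to 0.30), CD4+ T-like cells 28.5 and 28.9 CPM (0.02, -0.85 to 0.97), and Treg-like cells 6.92 and 22.0 CPM from 4 and 15 UMIs. A small cluster of other T-like cells, with little Cd4 or Cd8 and led by Il4, Zbtb16 and Il17a (29 Ctrl and 111 KD cells), had 1 and 17 UMIs (1.89, -0.78 to 7.27). In the lymphocytes nearest to CD8+ T cells a higher KD level of Rasgrp2 was therefore not detectable, except in Treg-like cells at the edge of the counting error (0.02 to 3.72). Endothelial-like cells had 57.5 and 87.1 CPM (0.60, 0.22 to 1.00) and macrophages 10.6 and 14.7 CPM (0.48, 0.21 to 0.75), while monocytes (70.2 and 66.7 CPM) and cDC (10.3 and 10.2 CPM) differed by less than the counting error.

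Itgb7 was high in Treg-like cells, with 175 CPM in Ctrl (101 UMIs) and 201 CPM in KD (137 UMIs), a log2 ratio of 0.20 (-0.18 to 0.58). Its highest level in Ctrl was in other T-like cells, with 301 CPM (29 UMIs), against 124.6 CPM in KD (55 UMIs), a log2 ratio of -1.27 (-1.95 to -0.57). NK-like cells had 105 and 104.8 CPM (-0.01, -0.46 to 0.45) and CD4+ T-like cells 85.5 and 70.1 CPM (-0.29, -0.80 to 0.25). Itgb7 was lower in KD in monocytes, macrophages and granulocytes. It went from 141 to 89.4 CPM in monocytes (-0.66, -0.83 to -0.49), from 50.3 to 39.6 CPM in macrophages (-0.35, -0.49 to -0.20) and from 21.7 to 10.2 CPM in granulocytes (-1.09, -1.67 to -0.50). Tumor-like or fibroblast-like cells also had less, 90.7 and 69.6 CPM (-0.38, -0.76 to -0.01). Conventional dendritic cells had more, 91.0 and 116.6 CPM (0.36, 0.14 to 0.58). Macrophages joined clusters of 2312 Ctrl and 1386 KD cells, of 923 and 343 cells, and of 401 and 89 cells. Makeup within macrophages and granulocytes was not held fixed. Summed over all kept cells, Itgb7 had a log2 ratio of 0.23, against 1.12 for Rasgrp2, 0.68 for Rab37 and 0.03 for Rom1, and the libraries also differed in their classes (macrophages were 3636 Ctrl and 1818 KD cells, monocytes 493 and 1273).

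Rab37 was highest in NK-like cells, with 39.4 CPM in Ctrl (27 UMIs) and 58.1 CPM in KD (56 UMIs), a log2 ratio of 0.56 (-0.13 to 1.28). Granulocytes, which carry secretory granules of their own, came next with 34.2 CPM in Ctrl (63 UMIs) and 37.8 CPM in KD (275 UMIs), a log2 ratio of 0.14 (-0.26 to 0.56). CD4+ T-like cells had 20.9 and 18.0 CPM (-0.22, -1.27 to 0.94). Outside CD8+ T cells no named class therefore showed a Rab37 difference larger than the counting error. CD8+ T cells held a larger share of the UMIs of Rom1 than of the other 3 genes, 56.5% in Ctrl and 49.3% in KD, against 39.5% and 19.98% for Rasgrp2, 28.1% and 17.7% for Rab37 and 20.2% and 17.6% for Itgb7. Elsewhere Rom1 stayed at or below 10.4 CPM in the named classes (1 UMI in Ctrl other T-like cells), and Ctrl granulocytes and Kupffer cells and KD plasmacytoid dendritic cells had no UMI of it.

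**Figure D4:**
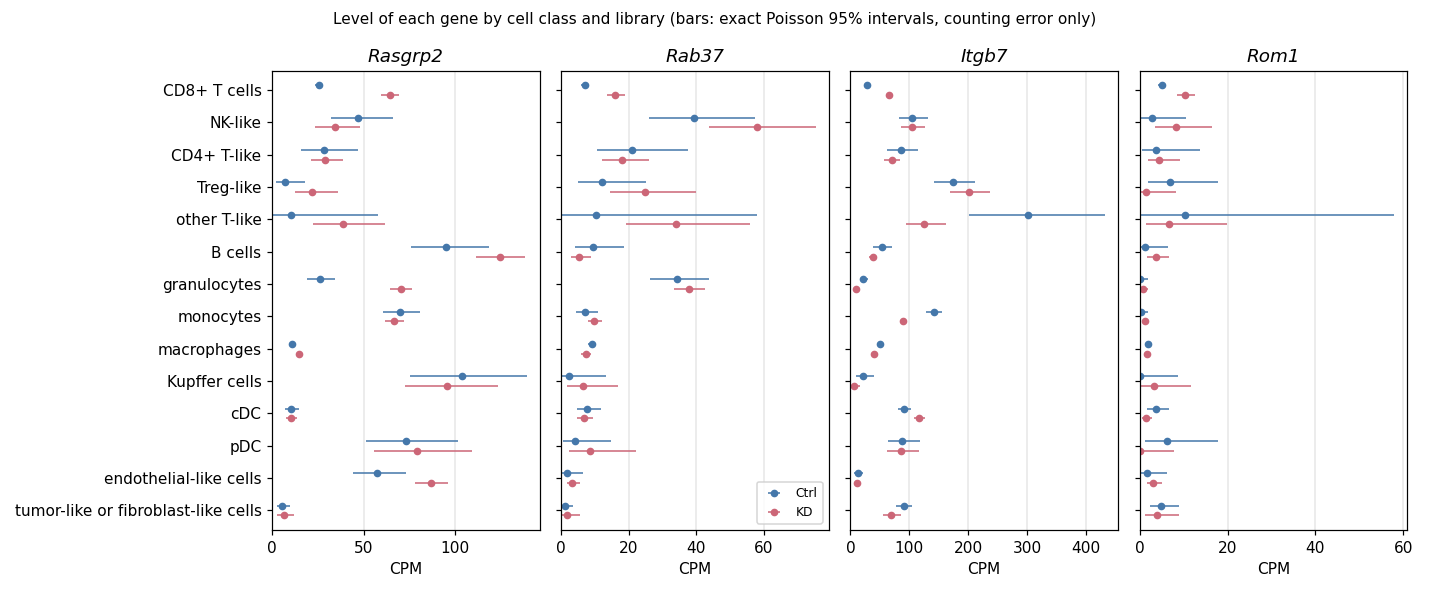
Level of each gene (CPM, x axis) in CD8+ T cells and 13 other named classes (y axis), Ctrl in blue and KD in red; bars are exact Poisson 95% intervals. Rasgrp2 is higher in KD in CD8+ T cells (25.5 and 64.4 CPM) and granulocytes (26.1 and 70.4 CPM), and Itgb7 is lower in KD in monocytes (141 and 89.4 CPM).

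Partners of the 4 genes in CD8+ T cells were read from gene lists, each counted without the member itself and beside all 9121 genes, of which 17.7% had an interval above 0 and 25.4% one below 0, with a median log2 ratio of -0.04. Of 12 measured genes of the Rap1 pathway, 4 lay above 0 and 3 below, with a median of 0.03. Rapgef6, another exchange factor for Rap1, was 264 CPM in Ctrl and 376 CPM in KD (0.51), and Apbb1ip, the adaptor between Rap1 and talin, 117 and 158 CPM (0.44). Talin itself (Tln1) was 165 and 140.04 CPM (-0.23), kindlin-3 (Fermt3) 145 and 133 CPM (-0.13), and Rasgrp1, the main RasGRP of T cells, 98.5 and 99.7 CPM (0.02). Rasgrp2 was thus the only measured gene of this list with a 2-fold difference.

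Of 10 measured integrin genes, 5 lay above 0 and 3 below, with a median of 0.10. Itga4, the chain that pairs with Itgb7 for gut homing, was 530.4 CPM in Ctrl and 580.1 CPM in KD (0.13, 0.08 to 0.18), while Itgae, its partner for epithelial retention, had only 48 and 34 UMIs. Itgb1, the other partner of Itga4, was 198 and 214 CPM (0.12), and the LFA-1 chains Itgal (-0.09) and Itgb2 (-0.28) were lower. Itga1 (0.91), Itgax (0.91) and Itga6 (0.69) lay highest of the measured genes after Itgb7. Itga2, with 62 Ctrl and 85 KD UMIs, fell under 200 UMIs and had a higher ratio than Itgb7 (1.71, 1.22 to 2.21). The gut receptors Ccr9 (58 and 34 UMIs) and Gpr15 (2 and 1 UMIs) fell under 200 UMIs, and the ligand gene Madcam1 had 0 Ctrl and 1 KD UMIs in these cells. Of the list of ligands and gut homing, 2 genes were measured, Icam1 (0.17) above 0 and Ccl25 (-0.39) below.

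Among 10 measured genes of Rab proteins and granule exocytosis, 2 lay above 0 (Stxbp2 0.25 and Sytl3 0.17) and 3 below (Sytl2 -0.37, Vamp8 -0.31 and Stx11 -0.26), with a median of -0.07. Rab27a, the Rab of cytotoxic granule docking, was 82.2 and 83.1 CPM (0.02). Among 10 measured tetraspanins, 5 lay above 0 and 3 below, with a median of 0.14, from Tspan31 (-0.69) to Tspan32 (0.30), and Prph2, the partner of Rom1, had 1 Ctrl and 0 KD UMIs. In these 4 lists of partners no measured gene other than the member reached a 2-fold difference.

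The list of quiescence and recirculation genes was different, as 11 of 11 measured genes lay above 0 in CD8+ T cells and the median was 1.30. Lef1 was 57.9 CPM in Ctrl and 204 CPM in KD (1.82), Klf2 84.7 and 199 CPM (1.23) and S1pr1, the receptor for egress from tissue, 14.9 and 39.1 CPM (1.39). Of these 11 genes 6 are also markers by which the naive-like cells were named, and those cells grew in share. Within cycling cells 8 of 11 lay above 0 (10.5% of all genes) with a median of 0.76 (-0.04 over all genes), with S1pr1 at 5.39 and 17.5 CPM (1.70), Klf3 at 5.18 and 14.5 CPM (1.49) and Klf2 at 47.6 and 116 CPM (1.29). In exhausted-like cells 4 of 10 did (8.27% of all genes; median 0.28), among them Klf2 (0.74) and Tcf7 (1.54), and in effector-like cells 3 of 10 (5.9%; median 0.20). In naive-like cells 3 of 11 did (5.38%; median 0.10), and Klf2 (-0.32) and S1pr1 (-0.50) were lower in KD. The median was thus highest in cycling cells and lowest in naive-like cells, while that of all genes lay between -0.05 and -0.02 in the 4 states. A link between this list and the 4 genes was not tested. As given above, the KD cycling cells stood further from their label than those of Ctrl.

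**Figure D5:**
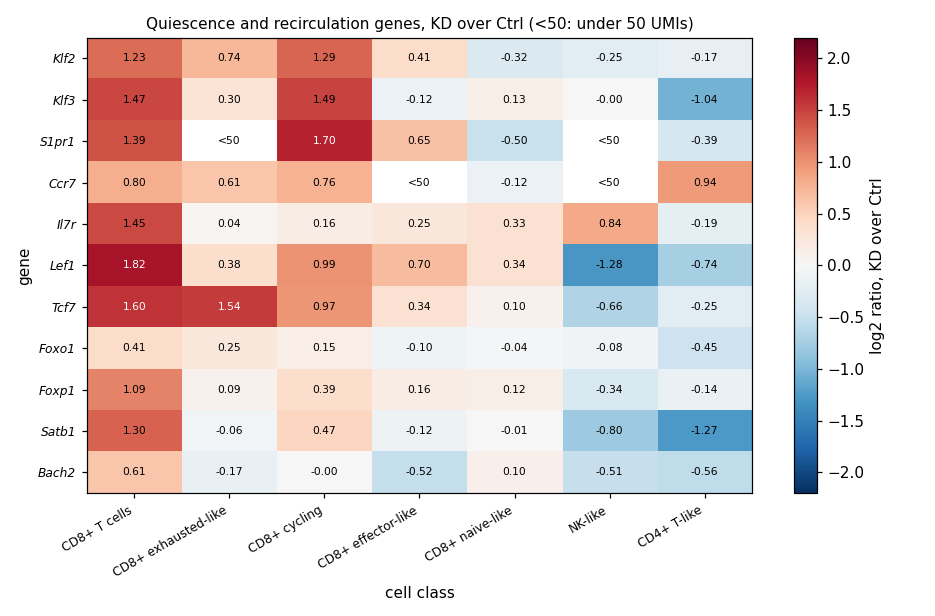
log2 ratio of KD over Ctrl (color and printed value) of 11 quiescence and recirculation genes (y axis) in CD8+ T cells, the 4 named states, NK-like and CD4+ T-like cells (x axis); <50 marks genes under 50 UMIs. Positive values fill the columns of CD8+ T cells and, with the exception of Bach2, of cycling cells, and most values for NK-like and CD4+ T-like cells are negative. Treg-like cells are not drawn. Their median was 0.49 over 6 measured genes, with 3 intervals above 0 (11.7% of all genes) and 0 below (14.7%).

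Across 22 groups of T and NK cells, each a sub-cluster of 1 library with at least 50 cells, of which 5 were unnamed clusters with few UMIs or led by genes of granulocytes or macrophages, the genes most like each of the 4 in log2(CPM + 10) were Selplg (r = 0.77), Bin2 (0.74) and Sp100 (0.73) for Rasgrp2, Hopx (0.85), Ifngr1 (0.84) and Slfn8 (0.84) for Itgb7, Atp2a3 (0.88), Cd37 (0.83) and Smad3 (0.82) for Rab37, and Gm11478 (0.73), Gm20069 (0.70) and Cnn2 (0.70) for Rom1. Among the 4 themselves, Rab37 and Itgb7 were most alike (r = 0.69), Rasgrp2 and Rab37 less so (0.35), and the other pairs lay between -0.13 and 0.14. These are Pearson correlations over 2 libraries, described without a test, since the groups of a library share its depth. Some of the genes overlap or adjoin others, and without a stated strand setting reads of overlapping genes cannot be told apart. Cd300lf, a myeloid receptor gene on the opposite strand that overlaps Rab37 in the GENCODE M21 annotation (GRCm38), had 74 Ctrl and 46 KD UMIs in CD8+ T cells (0.57, 0.00 to 1.12). Gm14965, which overlaps Rasgrp2, had 1 UMI in each library. Pygm, on the same strand 0.881 kb from Rasgrp2, had 19 UMIs in each library (0.828 and 1.97 CPM, 1.25, 0.26 to 2.25), a ratio close to that of Rasgrp2 at a far lower level, and Nrxn2, 3.515 kb from it, had 11 and 7 UMIs (0.60, -1.004 to 2.10). The genes flanking Rom1 had 39.3 and 39.1 CPM (B3gat3, -0.01) and 17.4 and 18.3 CPM (Eml3, 0.07), and Zfp740, next to Itgb7, was 21.6 and 26.3 CPM (0.29).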

How the data were processed

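Liver metastases were profiled by droplet-based 3′ single-cell RNA sequencing (10x Genomics kit v3.1) in 2 libraries, 1 per group, named Ctrl and KD after the hairpin in the labels. The deposited files are count tables: for each barcode the authors give the number of UMIs of each gene, not normalized. The submitters' processing notes name Cell Ranger 7.1.0, GRCm39, Seurat 5.1.0 and R 4.4.1. A 3′ kit of this kind keeps strand, but no strand setting of the counting is given in the sources used here. Every deposited barcode has at least 500 UMIs.

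Of 21359 cells, 19999 were kept, those with 200 to 6000 genes, no more than 30000 UMIs and a mitochondrial share of 10% or less. Counts were clustered in Seurat 5.3.0 (R 4.3.3) with 2000 variable genes, 20 principal components and resolution 0.5, into 17 clusters. The 6317 T and NK cells were clustered again into 13 sub-clusters, after the 24 variable genes that belong to the gene lists or are among the 4 genes described had been left out, with 1 fixed OpenBLAS kernel. Clusters were named from marker lists, with thresholds set after the clusters had been seen, and the names may differ from those of the study. Likely doublets (771 Ctrl and 830 KD cells by Scrublet in scanpy 1.11.5, at 0.8% per 1000 cells) were left out only as an alternative. The members and lists were chosen with earlier results of these data known.

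UMIs were summed per class and library (Python 3.11.15, NumPy 2.4.6, pandas 2.3.3, SciPy 1.17.1; figures in matplotlib 3.10.9). Cells are not replicates, so no test was made. Levels have exact Poisson and ratios exact conditional binomial 95% intervals, which count UMIs as independent molecules. Genes were counted from 200 UMIs in CD8+ T cells and from 50 UMIs within a state. Named genes are the 4 members, the genes of 6 lists, the genes next to the members in the order of ratios, and the 3 genes most like each member; neighbors in the genome were added later, and 1 gene of the quiescence list is not reported here. That order took genes of at least 0.2 times the CPM of their highest class, without mitochondrial, ribosomal, receptor segment, sex or unnamed genes. The ratio method was checked on simulated counts for the CD8+ comparison: over 9121 genes, 200 of them changed, the direction was right for 100% of the changed genes and 94.9% of intervals held the true value. An error between mice cannot be set from 1 library per group, so the check covers counting error only. TMM factors came from edgeR 4.0.16. Promoters came from a RefSeq table of GRCm38.p6, another build than that of the counts, and were matched by symbol.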

Additional observations from a re-analysis of the deposited data

Results flagged for a closer look

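Itgb7, higher in KD in CD8+ T cells (log2 ratio 1.23), was lower in KD in 5 other classes, where the whole counting interval lay on the other side of 0. The log2 ratio was -1.275 in other T-like cells (29 Ctrl cells), -1.095 in granulocytes, -0.6618 in monocytes, -0.3476 in macrophages and -0.3803 in tumor-like or fibroblast-like cells. With 1 library per group, the difference between classes was not tested. The mix of clusters within granulocytes and macrophages differed between the libraries and was not held fixed. Itgb7 was chosen for its high value in CD8+ T cells.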

How the results depend on the processing

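No paired analysis was possible because each group is 1 library and the labels give no replicate numbers, and no replicate could be left out. Over 13 alternatives, the log2 ratio in CD8+ T cells ranged from 1.12 to 1.38 for Rasgrp2, 1.05 to 1.54 for Rab37, 1.10 to 1.29 for Itgb7 and 0.90 to 1.19 for Rom1. At equal state shares, over 11 alternatives, it ranged from 1.01 to 1.32, 0.65 to 1.22, 0.68 to 1.09 and 1.11 to 1.28. In cells thinned to 1500 UMIs, Rasgrp2 fell to 1.12 in CD8+ T cells and to 1.01 at equal shares. With KD shares as weights Rab37 had 0.65 and Itgb7 0.68, and under the tighter CD8+ gate Rab37 had 1.54 in CD8+ T cells. Counted from 50 UMIs instead of 200, 283 genes in place of 111 were at least 2-fold higher in KD. Among values whose interval lay off 0, the direction turned for Rab37 in exhausted-like cells at resolution 1.0 (-1.06) and with T cell clusters only (-0.51), for Rom1 in effector-like cells with UMI gates in place of clusters (-0.00975), and for Rasgrp2 in naive-like cells with T cell clusters only (-0.20) and under the tighter CD8+ gate (-1.66), where Rom1 could not be given a ratio. Of the values in naive-like cells whose interval held 0, Rom1 was above 0 in 7 of 11 alternatives (lowest -0.99), Itgb7 in 10 of 12 (lowest -0.39) and Rab37 in 2 of 12 (highest 0.71). In cycling cells all 4 genes stayed above 0 under all 11 alternatives, and in exhausted-like cells Rasgrp2, Itgb7 and Rom1 did. TMM scaling moved ratios by 0.01 in CD8+ T cells and by 0.09 in naive-like cells. With another linear algebra kernel, chosen after seeing the data, the T and NK cells fell into 12 in place of 13 sub-clusters, 4209 in place of 4211 cells were called CD8+, and no state was named effector-like. The cause of these changes was not tested. Few UMIs limit Rab37 and Rom1 within states, and the error between mice is unknown for all values.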
